A study of Mus musculus with 8 samples.

Results

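Ribosome footprints were set against RNA, gene by gene, in 2 mouse neuron cultures labelled Eif4g1/Eif4g3 double-knockout. These cultures gave 4 of the 8 libraries in the series, 2 of ribosome footprints and 2 of total RNA, and were chosen by the genotype and assay in their labels and not by any measured value. The other 4 libraries are the same assays in wildtype cultures and are used here for a common estimate of the spread and for 1 comparison of the genotypes. All 8 came from CGR8 mouse embryonic stem cells differentiated in culture to neurons that the labels call cortical and glutamatergic, collected at day 8 in vitro. Cycloheximide, which freezes ribosomes on the mRNA, was given at 100 µg/ml during 5 minutes to block translation, and the labels give this treatment for the RNA libraries too. Footprints were made with the ARTseq kit, in which nuclease removes the RNA that ribosomes do not cover. The labels do not say whether the 2 cultures are separate clones or differentiations, so that each p-value stands only against the scatter among these libraries, which may be technical.

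A ribosome covers a short stretch of the mRNA it translates, and that stretch survives nuclease. The number of footprints on a gene divided by the number of its RNA reads is called its translational efficiency, and reflects how many ribosomes an mRNA carries relative to other mRNAs in the same cells. Most initiation in animal cells starts when a complex of the cap-binding protein eIF4E, the helicase eIF4A and the scaffold protein eIF4G recruits a small ribosomal subunit, which scans the 5′ untranslated region (5′ UTR) for a start codon. Eif4g1 and Eif4g3 each encode such a scaffold. Short open reading frames upstream of the coding sequence (CDS), hairpins in the 5′ UTR and the context of the start codon are known to alter how many ribosomes reach the CDS.

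The deposited table gave whole-number estimated counts per transcript, which were summed to 18301 genes. The double-knockout libraries held 10490535 and 18381021 footprint counts and 44786643 and 15862034 RNA counts, in culture 1 and culture 2. Of the 2 targeted genes, Eif4g1 stood at 154 and 287.5 CPM (counts normalised to library size and composition) in the footprints and at 125 and 305 in the RNA. Its RNA in the wildtype libraries was 288 and 279.9 CPM, so that culture 1 lay below both wildtype values and culture 2 above both. Eif4g3 RNA was 103 and 138.5 CPM in the cultures labelled double-knockout against 120.1 and 128 in wildtype, and these groups overlapped. Sums over a gene do not show the loss of a single exon, and at this level neither gene was near 0 in any library, so that the genotype is given here as labelled. Marker sums are CPM of the library total alone, without the scaling for composition. Neuron markers summed to 3702 and 4144 CPM in the RNA of culture 1 and culture 2. Glutamatergic markers summed to 268 and 218 CPM, of which Slc17a6, a vesicular glutamate transporter, made up 244.5 and 194.9. Fezf2 and Slc17a7, which mark cortical projection neurons, were under 1 CPM in both RNA libraries. Progenitor markers summed to 2255 and 2195 CPM and astrocyte markers to 767 and 823. Markers of fibroblasts, mural cells and endothelium differed between the cultures, at 277.0 CPM in culture 1 and 99.6 in culture 2. In a bulk culture, fewer cells of a type and less RNA per cell cannot be told apart.

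Footprints and RNA rose together across genes, and the ratio between them varied several-fold. In 12898 genes with enough counts in both assays, footprint and RNA levels (log2 CPM) had a Pearson correlation of 0.904, a description across genes of the same libraries. The log2 ratio of footprints to RNA had a median of -0.01, its quartiles were -0.62 and 0.58, and the 5th and 95th percentiles were -1.62 and 1.44, an 8.31-fold range. The 2 cultures gave nearly the same order of genes, with a Spearman correlation of 0.929 between their ratios and a median absolute difference of 0.19 on the log2 scale, against a median standard error (SE) of 0.127 for the fitted ratio. These ratios share the libraries' scaling and are relative to the other genes of the same cells: a general rise or fall of translation cannot be seen in them.

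With edgeR's quasi-likelihood test and a Benjamini-Hochberg adjusted p under 0.05, 8434 genes (65.4%) differed between footprints and RNA, 4145 higher in footprints (32.1%) and 4289 lower (33.3%). Past 2-fold there were 1499 higher (11.6%) and 1785 lower (13.8%). Higher genes made up 49.15% of the calls under the scaling used, 49.92% with RLE scaling and 35.23% when each assay was scaled on its own, which lowered the ratio by 0.23 for the median gene. For this reason the classes below are read against the median of all genes, and not against 0. Calls themselves were made against 0. Counts called in a class are to be set beside the shares over all genes, 32.1% higher and 33.3% lower. In 5441 genes (42.2%) both footprint libraries lay above both RNA libraries, and in 5517 (42.8%) both lay below. All 8434 called genes had the same sign in both cultures, which calling them from these same libraries favours. Over all genes tested, the share with the same sign was 90.17%. Of the 5403 genes not tested, 112 had at least 50 RNA counts in both libraries, and 102 of these had fewer than 10 footprints in both.

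**Figure D1:**
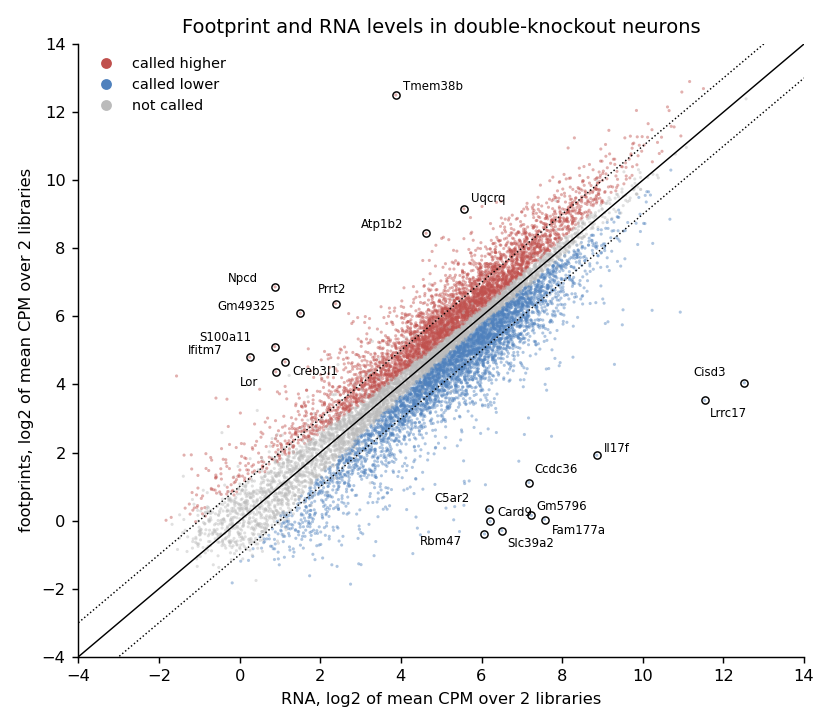
Mean footprint level against mean RNA level of each tested gene in the double-knockout cultures, both as log2 CPM over 2 libraries. The solid line marks equal levels and the dotted lines 2-fold differences; points are coloured by the call at an adjusted p under 0.05, and circled genes are the 10 highest and 10 lowest called ratios at a mean of 10 CPM or more. Of 12898 genes, 3284 were called and lay past 2-fold (25.5%).

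Sequences from some genes known for control by their 5′ UTR can be set beside the ratios. They were read from GENCODE M21 transcripts (build GRCm38), on the isoform of each gene with the most RNA, 5′ to 3′ in the sense of the mRNA. In the first group, short upstream open reading frames that begin with ATG, the start and stop codons are in capitals. Whether each of these frames is the element known to control its gene was not tested. In the second, iron-responsive elements, the 6-base loop that the iron regulatory proteins IRP1 and IRP2 bind is in capitals.
Amd1, chr10:40302155-40302175, minus strand, 5′ UTR: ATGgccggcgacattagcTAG
Azin1, chr15:38514482-38514505, minus strand, 5′ UTR: ATGatagggggttccatctccTAA
Azin1, chr15:38501507-38501536, minus strand, 5′ UTR: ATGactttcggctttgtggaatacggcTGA
Odc1, chr12:17544921-17544947, plus strand, 5′ UTR: ATGacgacgtgctcggcgtataagTAG
Atf4, chr15:80255582-80255593, plus strand, 5′ UTR: ATGgcgtatTAG
Atf5, chr7:44816526-44816537, minus strand, 5′ UTR: ATGgctctgTAG
Fth1, chr19:9982731-9982757, plus strand, 5′ UTR: tttcctgcttcaaCAGTGCttgaacgg
Ftl1, chr7:45459782-45459808, minus strand, 5′ UTR: tgtcttgcttcaaCAGTGTttgaacgg
Slc40a1, chr1:45925468-45925494, minus strand, 5′ UTR: ccaacttcagctaCAGTGTtagctaag
An upstream open reading frame of at most 30 nt was present in 3430 of 12305 annotated 5′ UTRs of tested genes (27.9%), with a median log2 ratio of -0.22. The pattern CNNNNNCAGTG, searched on the sense strand, was present in 1000 of them (8.13%), with a median of -0.03.

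Amd1 and Azin1, polyamine genes that hold frames printed above, carried few footprints for their RNA in the counts as deposited. Odc1, which also holds one, did not. Amd1, the decarboxylase that supplies the aminopropyl groups of spermidine and spermine, stood at 53.6 and 64.96 CPM in footprints and at 186.1 and 180.7 in RNA. Both footprint libraries lay far below both RNA libraries, a log2 ratio of -1.62 ± 0.115 (SE; n = 2 libraries per assay) with an edgeR adjusted p of 2.95e-07. Its frame begins 12 nt from the start of the transcript. Azin1, an inhibitor of the antizyme that targets ornithine decarboxylase for degradation, stood at 160.8 and 173 CPM against 442 and 432, a ratio of -1.39 ± 0.110 (adjusted p 6.76e-07). Odc1, ornithine decarboxylase and the entry to the pathway, had 228 and 229 CPM in footprints and 241 and 234 in RNA. Its ratio of -0.05 did not pass (adjusted p 0.699), although the values of the 2 assays did not overlap. Oaz1, the antizyme, whose full-length protein needs a programmed frameshift, was lower at 207 and 179 CPM against 343 and 310.0 (ratio -0.76 ± 0.112). With footprints taken per CDS base and RNA per transcript base its ratio was 0.00, on an annotated isoform whose CDS is incomplete. Srm, spermidine synthase, was higher, at 103 and 104.6 CPM against 52.3 and 47.3 (ratio 1.05 ± 0.0925). This call depended on the isoforms summed: 65.5% and 62.7% of its footprints sat on a retained-intron isoform, and with protein-coding isoforms only the ratio was -0.27. Paox, polyamine oxidase, was at 0.47, and at 0.45 and 0.42 (adjusted p 0.0504 and 0.0742) without the footprints or the RNA of culture 2. Of 11 tested members of the pathway 2 were called higher and 5 lower, and the median was -0.25 beside -0.01 over all genes. The difference of -0.24 was -0.15 without the RNA of culture 1 and -0.40 with the length correction.

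The stress-response genes under upstream open reading frames were low or near the middle. Of 9 tested members none was called higher and 5 lower, with a median of -0.37. Ibtk, an inhibitor of Bruton tyrosine kinase, had the lowest ratio, with 20.4 and 20.1 CPM in footprints against 49.6 and 43.2 in RNA (-1.2 ± 0.106). Ppp1r15a, which encodes the GADD34 subunit that directs dephosphorylation of eIF2α, was at 30.5 and 27.8 CPM against 55.6 and 44.8 (-0.79 ± 0.139). Both assays were separate in each of these genes. Ddit3, which encodes the transcription factor CHOP, had a ratio of -0.37 ± 0.0995 (adjusted p 0.00643) and Atf5 one of -0.48 ± 0.164 (adjusted p 0.0229). Atf4, the transcription factor whose mRNA is the textbook case of this control, had 215 and 236 CPM in footprints against 219 and 184 in RNA. Its groups overlapped and its ratio of 0.16 ± 0.119 did not pass (adjusted p 0.249). Slc35a4, whose long 5′ UTR holds 18 ATGs in the annotated isoform, was at 0.11 ± 0.14. In footprints summed over a whole gene, those on an upstream frame cannot be told apart from those on the CDS. Known ATF4 target genes were mostly high: 24 of 32 were called higher and 4 lower, with a median of 0.71. Slc1a5, a neutral amino acid transporter, reached 1.57 and Slc3a2, the heavy chain of several amino acid transporters, 1.56. Slc7a11, which imports cystine, was the lowest at -2.16, with 4.68 and 4.37 CPM against 20.4 and 19.9. Its annotated 3′ UTR is 7364 nt, and with footprints per CDS base and RNA per transcript base its ratio was -0.61. Trib3, a pseudokinase, was at -0.98 ± 0.368 (adjusted p 0.0341). The calls of 3 of these genes were lost without some single libraries. Without the RNA of culture 1 the ratio was -0.25 in both Ddit3 (adjusted p 0.0936) and Atf5 (0.309), and -0.69 in Trib3 (0.256). Without the footprints of culture 2 it was -0.29 in Ddit3 (0.0691), -0.38 in Atf5 (0.169) and -0.70 in Trib3 (0.244), and without those of culture 1 it was -0.55 in Atf5 (0.0526) and -1.23 in Trib3 (0.0539).

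The iron storage mRNAs differed although both carry the loop. Ftl1, ferritin light chain, had 149 and 207 CPM in footprints against 769 and 632 in RNA, a ratio of -1.97 ± 0.174 (adjusted p 2.68e-06). Fth1, ferritin heavy chain, had 333 and 348 against 258 and 223, a ratio of 0.50 ± 0.127 (adjusted p 0.00449). Each gene's assays were separate, in opposite directions. The difference between these genes was not tested, Ftl1 has near-identical copies in the mouse genome among which reads can be split, and Fth1 lost its call when each assay was scaled on its own and with the length correction. Slc40a1, the iron exporter ferroportin, was low in both assays, at 3.85 and 2.78 CPM against 9.09 and 7.25 (-1.34 ± 0.289). Sdhb, a citric acid cycle enzyme placed in this class because its fruit fly counterpart carries the element, had the highest ratio (1.08 ± 0.107). Of 8 tested members of the class 3 were called higher and 4 lower.

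**Figure D2:**
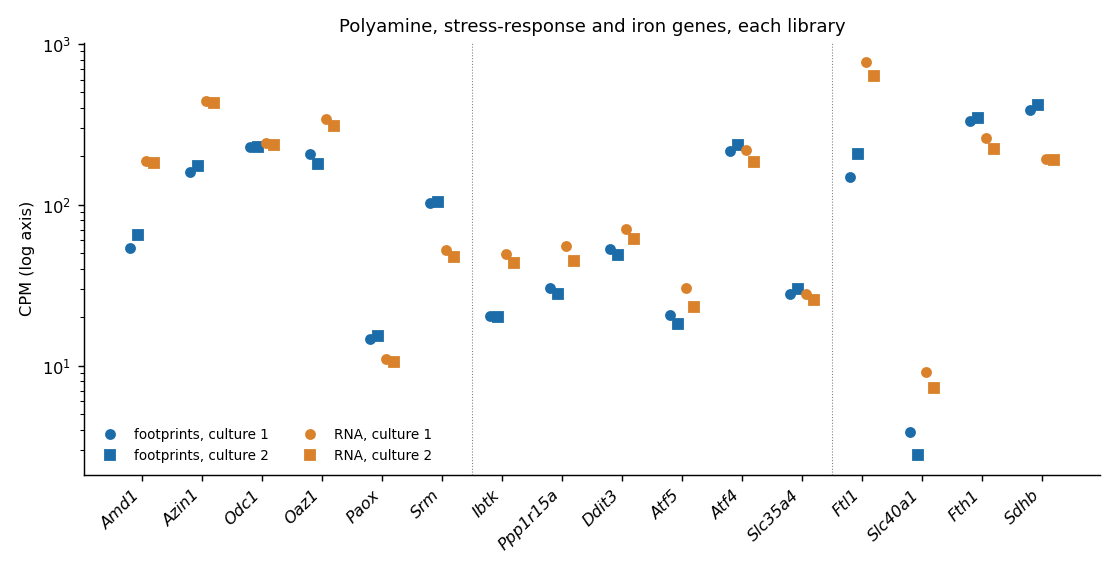
CPM (log axis) of each gene in each of the 4 double-knockout libraries: polyamine genes at left, stress-response genes in the middle, genes of the iron-responsive class at right. Blue marks footprints and orange RNA, circles culture 1 and squares culture 2. Amd1, Azin1 and Ftl1 have all footprint values below all RNA values, whereas Odc1 and Atf4 lie near equality with ratios of -0.05 and 0.16.

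Genes with a short CDS had somewhat higher ratios than genes with a long one. Medians were 0.21 in 1170 genes under 500 nt, 0.20 in 2949 genes from 500 nt to under 1000 nt, -0.02 in 5007 from there to under 2000 nt, -0.15 in 2943 from there to under 4000 nt and -0.28 in 693 of 4000 nt or more. The share called higher went from 41.4% in the shortest class to 16.5% in the longest, and the share called lower from 27.1% to 43.9%. The spread inside each class was much wider than the step between classes. The difference between the shortest and the longest class was 0.48, made of 0.31 in culture 1 and 0.66 in culture 2 (SD between cultures 0.246, n = 2), so that its size was not well fixed. Across 12762 genes the Spearman correlation of the ratio with CDS length was -0.157.

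Length enters the 2 assays differently, since footprints come from the CDS and RNA reads from the whole transcript. When footprints were expressed per CDS base and RNA per transcript base, the medians ran from 0.95 in the shortest class through 0.49, -0.05 and -0.50 to -0.94 in the longest, a difference of 1.89, and the Spearman correlation with CDS length became -0.498. Since this scale divides footprints by CDS length, a lower ratio in long CDS is built into it, and its direction is no second support for the pattern. For 3′ UTR length the direction turned. The shortest quintile of 3′ UTRs had a median of 0.46 and the longest quintile -0.53 in the counts as deposited, but -0.14 and 0.20 per base. The same held for the share of the transcript that is CDS, where the quintile with the smallest share went from -0.45 to 0.69 and that with the largest from 0.24 to -0.52. These 2 patterns depended on the scale.

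**Figure D3:**
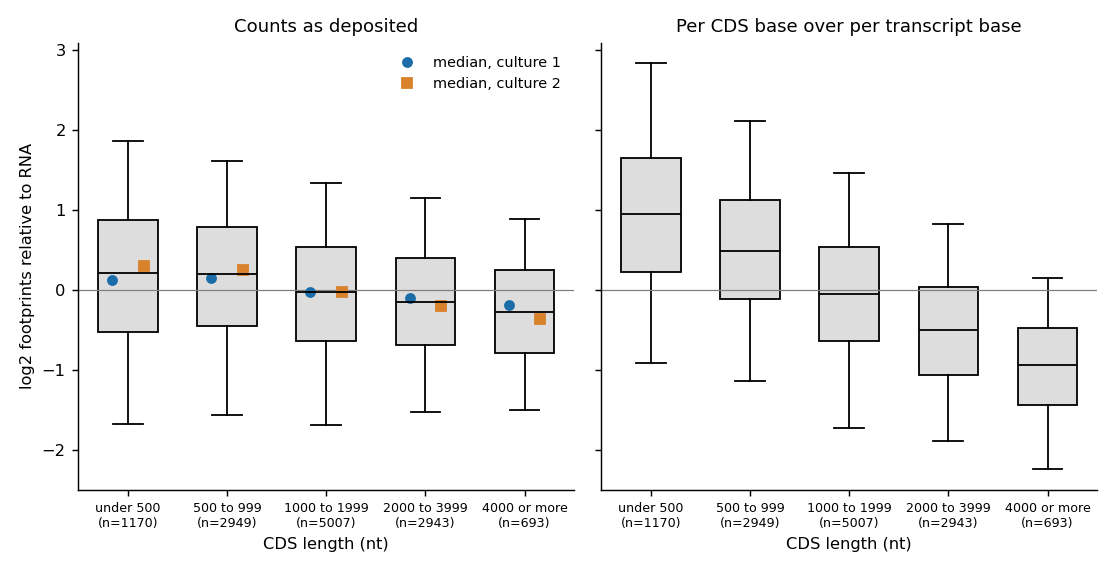
Log2 ratio of footprints to RNA by CDS length class in the double-knockout cultures. Boxes show quartiles and medians over genes and whiskers the 5th and 95th percentiles; circles and squares at left are the medians of culture 1 and culture 2. Medians fall from 0.21 to -0.28 in the counts as deposited (left) and from 0.95 to -0.94 with footprints per CDS base and RNA per transcript base (right).

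Upstream ATGs went with lower ratios in both cultures and, over all genes, on both scales. Among 6154 genes with no ATG in the annotated 5′ UTR the median was 0.18, and 2432 were called higher against 1597 lower. It was -0.04 with 1 upstream ATG, -0.15 with 2, -0.24 with 3 to 4 and -0.50 in the 895 genes with 5 or more, of which 147 were called higher and 494 lower. The difference between no ATG and 5 or more was 0.68, at 0.69 in culture 1 and 0.66 in culture 2, and 0.44 with the length correction. Because longer 5′ UTRs hold more ATGs, the genes were also divided into quintiles by 5′ UTR length. Within each quintile, genes with at least 1 upstream ATG had the lower median, from -0.03 against 0.14 in the shortest quintile to -0.26 against 0.04 in the longest. It held with the length correction in each quintile as well. Genes with 3 or more upstream ATGs were also compared with genes without inside each CDS length class. In the counts as deposited they were lower in all 5 classes, with -0.34 against 0.37 under 500 nt and -0.37 against -0.14 at 4000 nt or more. With the length correction they were lower in the 3 classes between and not in these, where the medians were 1.09 against 0.97 under 500 nt and -0.91 against -0.93 at 4000 nt or more.

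Start codons with a purine 3 bases before the ATG and a G directly after it, the strong context, had a median of 0.07 in 5607 genes. Those with 1 of the pair had -0.03 in 5987 genes and those with neither -0.22 in 802. A start of the transcript with a C followed by 4 pyrimidines, the sign of 5′ terminal oligopyrimidine (TOP) mRNAs, was found in 307 annotated transcripts with a median of 0.12, against -0.01 in the others. By GC content of the CDS, the lowest quintile had a median of -0.33, the one below the top had the highest at 0.22 and the top quintile had 0.05.

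**Figure D4:**
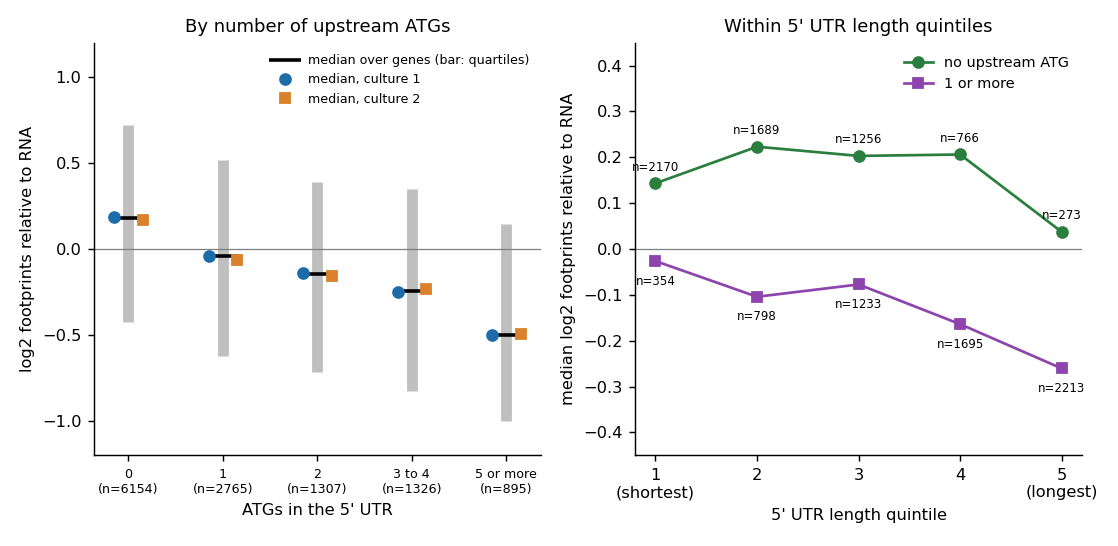
Left, log2 ratio of footprints to RNA by number of ATGs in the annotated 5′ UTR, with the median over genes (black), the quartiles (grey bar) and the median in each culture. Right, the median within quintiles of 5′ UTR length for genes without and with upstream ATGs, with the number of genes at each point. Medians fall from 0.18 to -0.50 at left, and at right genes with upstream ATGs lie lower in all 5 quintiles.

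The classes of the translation machinery did not share a ratio. Of 49 tested initiation factors 31 were called higher and 6 lower, with a median of 0.60. Eif4a1, the helicase of the cap-binding complex, had 2089 and 1838 CPM in footprints against 822 and 882 in RNA (1.2 ± 0.130), and Eif4e, the cap-binding protein, 388 and 267 against 172 and 189 (0.86 ± 0.160). Eif1, which guards start codon choice, was at 1.72, and Eif4e1b, a germline relative of eIF4E at 3.23 and 3.25 CPM in footprints, at 1.99. The lowest were Eif4b, a helper of the helicase, at -0.80 and Eif4g2, a scaffold relative that does not bind eIF4E, with 657 and 656 CPM against 1120.0 and 1054 (-0.73 ± 0.112). Eif4g3 itself was at 0.49 ± 0.130, and lost its call when each assay was scaled on its own. Without the RNA library of culture 1 its ratio was 0.29 (adjusted p 0.0583). Eif4g1 was at 0.05 ± 0.519, with both assays lower in culture 1 than in culture 2.

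Cytosolic ribosomal proteins lay close to the median of all genes. Of 78 tested members 27 were called higher (34.6%) and 13 lower (16.7%), beside 32.1% and 33.3% over all genes tested. Their median was 0.21, which was -0.03 when each assay was scaled on its own and -0.08 with the length correction. The cultures differed: the median was 0.03 in culture 1 and 0.36 in culture 2. Summed over the class, footprints were 46990 and 48289 CPM, nearly equal, while RNA was 48907 and 39191 CPM, so that the difference between cultures lay in the RNA. Rpl28 (1.36) and Rps13 (1.25) were the highest and Rplp0 (-1.33) and Rpsa (-1.29) the lowest. Rpl41, which encodes a very short protein, had 764 and 749 CPM against 1305 and 1031 (-0.63 ± 0.136). Many ribosomal protein genes have processed copies in the genome, among which reads can be split. The elongation factors and other TOP mRNAs had 10 of 20 called higher and 3 lower, with a median of 0.38, or -0.10 with the length correction. Eef1a1, which brings aminoacyl-tRNA to the ribosome, had 5379 and 5343 CPM against 6771 and 5320.0 and was not called (-0.17 ± 0.156), nor was the translocase Eef2 (-0.05 ± 0.135). Nap1l1, a histone chaperone, was at 1.71 and Eif3f, an initiation factor subunit, at 1.15. Pabpc4 was at -1.26 and Pabpc1, the main poly(A)-binding protein, at -0.03 ± 0.142. Tpt1 was at 1.03, but 49.0% to 58.4% of its counts sat on a processed transcript, and with protein-coding isoforms only its ratio was -4.79. Mitochondrial ribosomal proteins were higher as a class, 52 of 78 called higher and 2 lower with a median of 0.53. Mrps6 (1.97) and Mrpl14 (1.93) led, and Mrps26 (-0.60) and Mrpl1 (-0.29, adjusted p 0.0821, or 0.0202 in the fit with the culture as a term) were last.

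Genes of energy metabolism and protein turnover carried the most uniform footprint excess. Of 30 tested enzymes of glycolysis and the citric acid cycle 29 were called higher and 1 lower, with a median of 1.09. Mdh2, mitochondrial malate dehydrogenase, had 511 and 563 CPM in footprints against 125 and 130.2 in RNA (2.08 ± 0.112), and Gapdh 1990.0 and 2247 against 543 and 537 (1.97 ± 0.122). Every footprint value was over 3 times every RNA value in these genes. The exception was Pfkp, a phosphofructokinase, at -1.32, whose ratio was 0.04 with protein-coding isoforms only. Dlst, a subunit of the 2-oxoglutarate dehydrogenase complex, was the next lowest at 0.34, with an adjusted p of 0.0519 without the footprints and 0.0872 without the RNA of culture 1. Subunits of oxidative phosphorylation had 69 of 77 called higher and 1 lower, with a median of 1.01. Uqcrq, a small subunit of complex III, stood at 546.5 and 595.5 CPM against 50.1 and 44.5 (3.59 ± 0.121), and Cox6b1 of complex IV at 1035 and 922 against 250.3 and 237 (2.01 ± 0.117). Cox7a2l, a factor of respiratory supercomplexes, was the 1 called lower (-1.14), and Atp5mpl was at 0.12 ± 0.116. Proteasome subunits had 33 of 37 called higher and none lower, with a median of 0.90, or 0.41 with the length correction. Psmb2 (1.84) and Psmb3 (1.80) of the catalytic core led, and Psma3 (-0.10) and the immunoproteasome subunit Psmb8 (-0.30), which had 1.56 and 2.36 CPM in footprints, were not called.

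Lipid synthesis and secretory genes were divided within their classes. In cholesterol and fatty acid synthesis 17 of 29 were called higher and 6 lower. Dhcr7, the last enzyme of cholesterol synthesis, was at 1.97 and Srebf2, the transcription factor that controls the pathway, at 1.55. Insig1, which retains that factor in the endoplasmic reticulum (ER), had 159 and 188 CPM against 489 and 504.4 (-1.52 ± 0.118). Lss, lanosterol synthase, was at -1.34, and at 0.39 with protein-coding isoforms only. ER chaperones had 13 of 20 called higher and 3 lower, led by the disulfide isomerase Pdia3 (1.94). The next, Calr, was at 1.47 with all isoforms and at -0.72 with protein-coding isoforms only, 62.7% and 53.9% of its footprints lying on a retained-intron isoform. Edem1, which takes misfolded glycoproteins to degradation, was at -1.56, and Ero1l, the oxidase that keeps disulfide isomerases active, at -0.55. Selenoproteins, which read a UGA codon as selenocysteine, had 9 of 18 called higher and 4 lower. Gpx3, an extracellular glutathione peroxidase, was at 1.86, Selenos at 1.23, Selenoo at -0.76 and Selenot at -1.66, with 155 and 197 CPM against 577.5 and 535. With the length correction Selenot was at -0.28.

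Collagens and extracellular matrix genes had a median of 0.56 yet 1 of 25 was called higher and 1 lower. This median rested on single libraries: relative to that of all genes it was 0.57, but -0.09 without the footprints of culture 1 and 0.21 without the RNA of culture 2. Their cultures differed in both assays: Col1a1, the main chain of type I collagen, had 194 and 54.1 CPM in footprints and 38.1 and 14.3 in RNA, a ratio of 2.18 ± 1.02 (adjusted p 0.13), and an adjusted p of 3.08e-14 in the fit with the culture as a term. Sparc, a collagen-binding glycoprotein, was called at 1.56 ± 0.437 (adjusted p 0.0269) but its ratio was -0.03 with protein-coding isoforms only. Fbn1, a microfibril protein, was at -0.94 ± 0.330 (adjusted p 0.0402) and Col11a1 at -0.20. The markers of fibroblasts, mural cells and endothelium given above were also higher in culture 1. Their part in these values was not tested. With the length correction the median of this class relative to that of all genes was -0.24, where it had been above it. Both calls were lost when a single library was left out: Sparc had an adjusted p of 0.08 without the footprints of culture 1 and 0.137 and 0.0972 without the RNA of culture 1 or culture 2, and Fbn1 one of 0.207 without the footprints of culture 2 and 0.105 and 0.125 without the RNA of culture 1 or culture 2.

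Genes of the neuronal cytoskeleton were mostly high. Tubulins, the subunits of microtubules, had a median of 1.18, with 12 of 15 called higher and none lower, and 0.52 with the length correction. Tubb4a had 300.3 and 309.5 CPM in footprints against 33.4 and 39.5 in RNA (3.07 ± 0.113), Tuba1c 479 and 525 against 97.1 and 120.1 (2.21 ± 0.127), and the neuronal tubulin Tubb3 2340.0 and 2607 against 832 and 1031 (1.41 ± 0.163). Tubd1 (0.05) and Tube1 (-0.30), the delta and epsilon tubulins of centrioles, were not called. Actb, β-actin, was at 1.74 ± 0.135. Neurofilament, growth and microtubule-associated genes had 17 of 29 called higher and 3 lower. Stmn4 (2.10) and Dpysl5 (1.77), both regulators of microtubules in growing axons, were highest. Marcks, an actin-binding substrate of protein kinase C, was at -0.51. Map1a, of which no counted isoform had an annotated CDS, was at -0.71. Map2, the dendritic microtubule protein, was at -0.32 ± 0.134 (edgeR adjusted p 0.0546), with 1096 and 1050.0 CPM against 1256 and 1420.0. With the culture as a term in the fit the adjusted p of Map2 was 0.0175, and without the footprints of culture 1 that of Marcks was 0.0928 (ratio -0.35).

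Presynaptic genes were mostly high and postsynaptic ones were not. Of 38 presynaptic release genes 24 were called higher and 7 lower, with a median of 0.80. Relative to all genes this was 0.82, and 0.40 with protein-coding isoforms only. Syn1, a phosphoprotein of synaptic vesicles, had 342 and 348 CPM against 50.3 and 56.2 (2.70 ± 0.121) and Rab3b, a vesicle GTPase, 128 and 143 against 24.1 and 22.9 (2.52 ± 0.144). Bsn, a giant scaffold of the active zone (-1.48), and Unc13b, a vesicle priming factor (-0.90), were lowest. The longest counted CDS of Bsn was 3511 nt, on an isoform annotated without a 5′ UTR and with a 3′ UTR of 3982 nt. That CDS may be incomplete, and the ratio is that of the counted isoforms only. Of 33 postsynaptic scaffold and signalling genes 11 were called higher (33.3%) and 11 lower (33.3%), close to the shares over all genes (32.1% and 33.3%). Their median was 0.11, which was -0.12 when each assay was scaled on its own. Relative to all genes it was 0.12, and -0.10 with protein-coding isoforms only. Shank1, a scaffold of the postsynaptic density, was at 1.38, on counted isoforms without an annotated CDS. The kinase Camk2a was at 1.04 ± 0.180, with 14.1 and 15.7 CPM against 7.54 and 6.84. The scaffolds Homer2 (-2.13 ± 0.107) and Homer1 (-1.53 ± 0.101) were lowest. The difference between these classes was not tested.

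Voltage-gated channels were mostly low, while receptors and adhesion genes lay near the middle of all genes. Glutamate and GABA receptors had 10 of 34 called higher (29.4%) and 9 lower, with a median of -0.01, beside 32.1% and 33.3% over all genes tested. Grm2 (1.88, under 4 CPM in all libraries) and Grin1, the obligatory subunit of NMDA receptors (1.80 ± 0.137), were highest. Gria2, the AMPA receptor subunit that blocks calcium entry, had 179 and 183 CPM against 355 and 363 (-0.99 ± 0.121), and -0.08 with the length correction, its annotated 3′ UTR being 7268 nt. Gabra4 was at -0.98. Adhesion genes had 9 of 24 called higher and 6 lower. L1cam (1.34) and Lrrtm1 (1.0) were highest, Lrrtm2 was at -0.79 and Nlgn1, a postsynaptic partner of neurexins with 27 ATGs in its annotated 5′ UTR, had 51.7 and 63.8 CPM against 248 and 274 (-2.17 ± 0.152). Voltage-gated ion channels had 4 of 39 called higher and 22 lower, with a median of -0.60. Kcnq3, a subunit of the M-current channel, stood at 24.46 and 25 CPM against 109 and 102.5 (-2.10 ± 0.0943), and Kcna2 at 16.1 and 21.8 against 64.3 and 65.6 (-1.76 ± 0.123). With the length correction Kcna2, whose annotated 3′ UTR is 9401 nt, was at 0.14 and Kcnq3 at -0.98. Kcnd1 (1.25) was among the highest. Long transcripts bound by FMRP, a repressor of translation, had 6 of 32 called higher and 14 lower, with medians of -0.03 in culture 1 and -0.34 in culture 2. Over both cultures it was -0.17, and -0.93 with the length correction. Prrc2a (1.23) and clathrin heavy chain Cltc (0.90) were highest, and Usp34 (-2.38) and Herc2 (-1.25), both of the ubiquitin system, lowest. No counted isoform of Usp34 had an annotated CDS. Fmr1, the gene of FMRP, was at -0.65 ± 0.113.

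**Figure D5:**
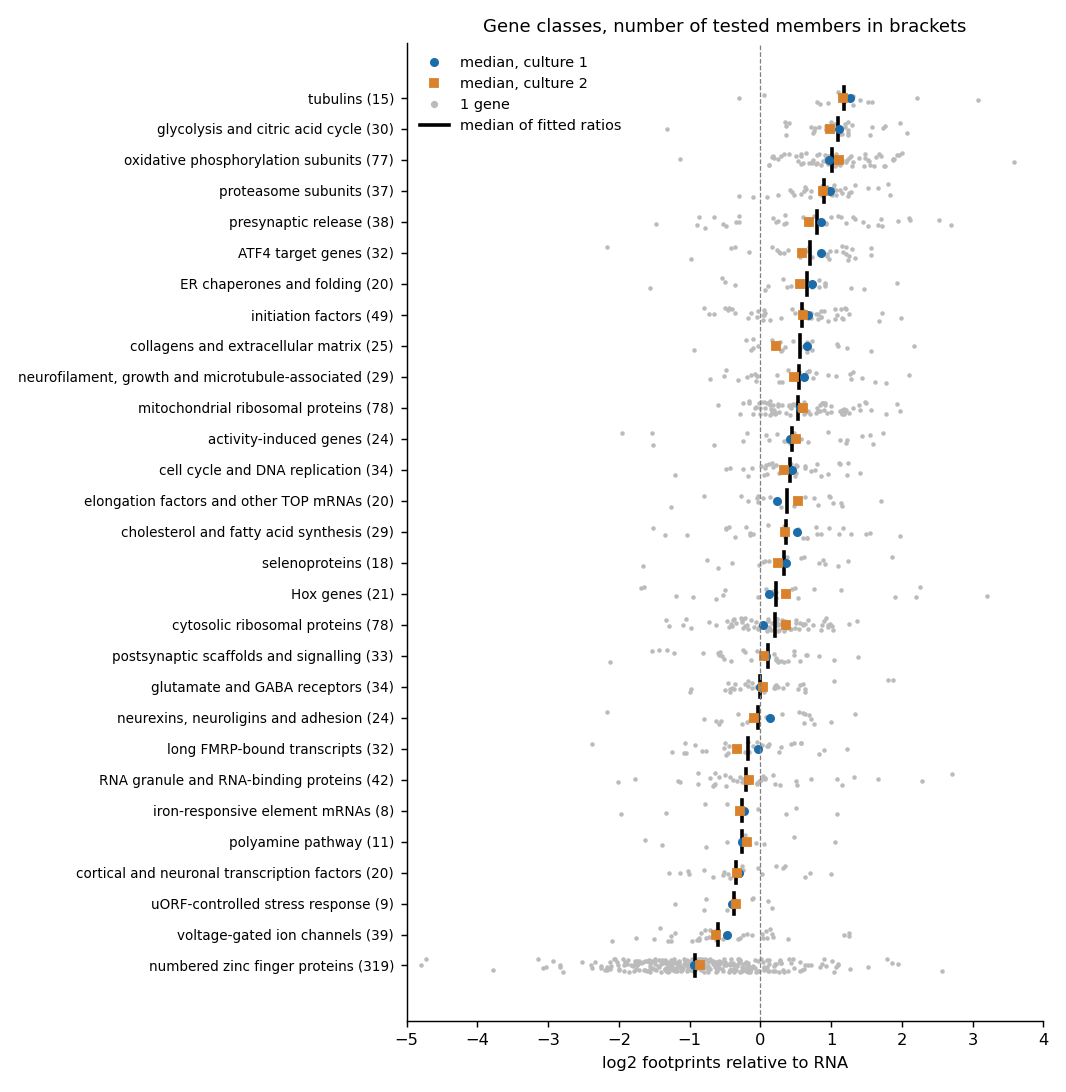
Log2 ratio of footprints to RNA in 29 gene classes, ordered by median, in the double-knockout cultures. Grey points are genes, black bars the medians of fitted ratios, and coloured points the medians in each culture; the dashed line is the median of all tested genes (-0.01). Tubulins (1.18) and glycolysis and citric acid cycle genes (1.09) lie at the top in the counts as deposited and numbered zinc finger proteins (-0.92) at the bottom; the scale is cut at -5 and 4, which leaves out no gene of these classes. The order depends on the scale: with the length correction tubulins are at 0.52, below presynaptic (0.90) and activity-induced (0.81) genes. The 4 classes whose median changes sign with the scaling of the libraries are cytosolic ribosomal proteins, Hox genes, postsynaptic genes and receptors.

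In the counts as deposited, neuronal transcription factors and RNA-binding proteins had low medians and Hox genes ranged widely. Activity-induced and cell cycle genes had medians above that of all genes. Cortical and neuronal transcription factors had 3 of 20 called higher and 8 lower, with a median of -0.34. Neurod6 (1.0 ± 0.316, at 3.44 and 3.61 CPM in footprints) and Mef2d (0.71) were highest and Cux2 (-1.29) and Satb1 (-1.13) lowest. Hox genes had a median of 0.22, or -0.02 when each assay was scaled on its own, over a wide range. Hoxb8 had 325 and 219 CPM in footprints against 34.3 and 24.1 in RNA (3.20 ± 0.226) and Hoxb5 158 and 220.1 against 36.9 and 42.7 (2.26 ± 0.149). Hoxb2, of the same cluster, had 14.2 and 16.9 against 53.5 and 46.9 (-1.69 ± 0.128), and Hoxd8 was at -1.64. In each of these genes the values of the assays were apart. Activity-induced genes had 8 of 24 called higher (33.3%) and 4 lower (16.7%), beside 32.1% and 33.3% over all genes, with a median of 0.45. Egr4 (1.74) and the phosphatase Dusp1 (1.60) were highest, and Klf4 (-1.96) and Homer1 lowest. RNA granule and RNA-binding proteins had 9 of 42 called higher and 19 lower. Atxn2l, a relative of ataxin 2, was among the highest at 2.28. Tia1, a stress granule protein, had 63.6 and 67.6 against 283 and 245 (-2.01 ± 0.103), and Cpeb4, which binds cytoplasmic polyadenylation elements, was at -1.78. The median of this class was -0.21, and lay 0.17 above that of all genes with the length correction. Cell cycle genes had 15 of 34 called higher and 2 lower, with a median of 0.42. Plk1 (1.41) and Pcna (1.23) were highest, and cyclin E2, Ccne2 (-1.2), and Tyms (-0.49) lowest. Calls of 3 weak genes named here were lost without 1 library: Neurod6 had an adjusted p of 0.0799 without the footprints and 0.107 without the RNA of culture 2, Klf4 one of 0.0531 without the footprints of culture 1, and Tyms 0.0514 to 0.143 without any 1 library.

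The largest class with low ratios was that of the zinc finger proteins named by number, many of them DNA-binding repressors. Of 343 with counts 319 were tested, 27 were called higher and 232 lower, 144 of them past 2-fold. The median was -0.92, at -0.94 in culture 1 and -0.86 in culture 2, and -1.02 with the length correction. The 120 members without an upstream ATG had a median of -0.92 and the 49 with 5 or more -1.11, a smaller step than in other genes (0.20 and -0.47). The ratio differed between the ends of GC content: 151 members in the lowest quintile of all genes had a median of -1.22, and the 55 members in the top quintile one of -0.08. The quintiles between were at -0.61, -1.03 and -0.63, so that the rise was not steady. The ratio also went with how much of the CDS, in 28-nt words, another gene shares. Members with no shared word (103) had a median of -0.51 and those with more than 50% shared (28) one of -1.68, and kallisto divides reads among such genes. In other genes the lowest quintile of GC content had a median of -0.28. Zfp992 had 1.46 and 1.12 CPM in footprints against 37.5 and 32.0 in RNA (-4.79 ± 0.213) and Zfp101 27.2 and 21.0 against 672 and 586 (-4.72 ± 0.225). Zfp703 (2.57) and Zfp580 (1.95) were highest.

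The 10 lowest called ratios at a mean of at least 10 CPM over the 4 libraries were in genes with few or almost no footprints. RNA alone can carry a gene past that floor, so that abundant RNA with few footprints follows from how they were chosen. Several of these genes had that RNA on isoforms with no annotated CDS. Cisd3, a mitochondrial iron-sulfur protein, had 14.7 and 18.4 CPM in footprints against 4289 and 7443 in RNA (-8.46 ± 0.369). Of its RNA counts 99.8% and 99.9% sat on a non-coding isoform of 119 nt, and with protein-coding isoforms only its ratio was 0.80. Il17f (-6.98) and Card9 (-6.13) had nearly all of their RNA on isoforms annotated as processed transcripts and Slc39a2 (-6.89) on a retained intron, and C5ar2 (-5.79) holds the sequence of a small nuclear RNA gene in its exon. Lrrc17 had 13.6 and 9.52 CPM against 3362 and 2572 (-8.03 ± 0.295) on its protein-coding isoform, which overlaps Fbxl13 on the other strand. Whether counting used strand was not given in the sources used here, so that reads of overlapping genes cannot be told apart. Fam177a (-7.39), Gm5796 (-7.20), Rbm47 (-6.34) and Ccdc36 (-6.09) had the same pattern of 0.520 to 2.39 CPM in footprints. Of 322 genes called at least 4-fold lower, 23.6% shared a stretch of 28 nt with an annotated small or ribosomal RNA, against 6.74% of the 193 called at least 4-fold higher and 12% of all tested genes. The 1550 genes with such a stretch had a median of -0.34, and 0.12 with the length correction.

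At the other end stood Tmem38b, an ER potassium channel, with 6013 and 5594 CPM in footprints and 13.3 and 16.1 in RNA (8.64 ± 0.190). Its 3′ UTR holds the whole 119-nt 5S ribosomal RNA gene n-R5s185 (chr4:53860652-53860770, plus strand, GRCm38), at positions 1495 to 1613 of a transcript of 2862 nt whose CDS ends at 943. Fragments of ribosomal RNA are a known by-product of footprint libraries. The counts do not show where on the transcript the footprints lay, so that their origin was not tested. Npcd, at 110.3 and 122.6 CPM against 0.758 and 2.92 (6.34 ± 0.548), overlaps the annotated genes Cbx6 and Nptxr on its own strand, and Ifitm7 (4.56), Gm49325 (4.46) and Prrt2 (3.97) also overlap another annotated gene. S100a11, a calcium-binding protein, had 38.7 and 30.4 CPM against 1.97 and 1.70 (4.19 ± 0.484). Atp1b2, a β subunit of the sodium pump, had 339.8 and 355 against 24.0 and 25.3 (3.82 ± 0.111), 53.8% and 49.5% of its footprints lying on a processed transcript. Uqcrq (3.59), Lor (3.52) and Creb3l1, an ER-anchored transcription factor (3.47), complete the 10 highest at the same floor. Footprints alone can carry a gene past it.

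The ratios in the cultures labelled double-knockout were close to those of the wildtype cultures. Across the 12898 genes the Spearman correlation between genotypes was 0.970, the median absolute difference was 0.10 on the log2 scale, and 8426 of the 8434 called genes had the same sign in wildtype. In the edgeR test of the difference itself 0 genes (0.0%) passed, the smallest adjusted p being 0.9997. An unadjusted p under 0.05 was found in 110 of the 12898 genes, a smaller share than the 0.05 that no difference would give. The p-values of this test thus ran high, which limits what its lack of calls can show. DESeq2 called 1 gene. No member of the 29 classes was called for this difference. Class medians in wildtype were likewise close, at -0.83 for the zinc finger genes, 1.03 for the tubulins and 0.25 for cytosolic ribosomal proteins. A p that misses the threshold does not show that the genotypes were alike, and the median SE of a ratio within 1 genotype was 0.127.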

How the data were processed

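Libraries came from 2 cultures labelled Eif4g1/Eif4g3 double-knockout and 2 labelled wildtype, each with ribosome footprints and total RNA (2 libraries per group). Per the labels' protocols, footprints were prepared with the ARTseq kit after cycloheximide. Per the submitters' processing notes, the authors used FastQC, Trimmomatic, Bowtie and kallisto; their versions and settings, the build, the transcripts indexed and the use of strand were not given in the sources used here. The deposited values are estimated counts per Ensembl transcript, and all of them are whole numbers, so none was rounded.

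Of 60528 transcripts, 60444 (99.86%) matched GENCODE M21 (GRCm38) by identifier; the other 84, with 0.076% to 0.151% of a library's counts, were left out. Counts were summed per gene over all isoforms, including retained introns, which took 7.17% and 6.95% of the double-knockout footprints and 4.91% and 4.62% of the RNA. All 8 libraries were fitted with edgeR 4.0.16 (R 4.3.3, limma 3.58.1): TMM scaling, filterByExpr (minimum count 10) in both assays, robust quasi-likelihood fit with 4 group means and 4 residual degrees of freedom. The test was footprints minus RNA in double-knockout, called at a Benjamini-Hochberg adjusted p under 0.05 over all genes tested. Printed CPM are TMM-scaled, except marker sums, which are unscaled. The ratio of a culture was taken from log2 CPM with a prior count of 0.5. On counts simulated for this comparison with 12842 genes, the fit called 82 of the 99 genes given a 2-fold ratio, 50 of the 99 given a 1.5-fold ratio and 7 of the 12644 left at none.

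Lengths, upstream ATGs and sequences are from GENCODE M21. The CDS length, given without the stop codon, is that of the longest CDS of a gene, and UTR features are those of the isoform with the most RNA, for 12447 genes with a complete one. For the length correction, offsets of CDS length for footprints and transcript length for RNA entered the same fit.

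Named genes are the 10 highest and 10 lowest called ratios at a mean of at least 10 CPM and with 1 sign in both cultures, the 2 highest and 2 lowest tested members of each class, and a fixed list of translation, stress, iron, polyamine and cytoskeleton genes; a few that this rule selects are not reported here. The members, lists and tests were chosen with earlier results of these data known. Cultures were paired by the codes in the labels; culture 1 has the same code in both assays, whereas that of culture 2 is written in different ways. Differences between the replicates correlated at 0.186 across genes between the assays. Alternatives were RLE scaling, scaling within each assay, other filters, protein-coding isoforms only, length offsets, DESeq2 1.42.0, limma-voom, the double-knockout libraries alone, a culture term, and leaving out libraries.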

Additional observations from a re-analysis of the deposited data

How the results depend on the processing

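Across the 16 alternatives, 2907 to 4705 genes were called higher and 2950 to 5584 lower. With the culture as a replicate block, which pairs footprints and RNA, 4705 were higher and 4756 lower, and among the named genes it added calls and ended none. With each assay scaled on its own, 905 genes were called higher past 2-fold. Calls for the difference between genotypes numbered 2 with protein-coding isoforms only, 1 with DESeq2 and 0 to 1 when a library was left out. With length offsets the CDS length difference was 1.89 and the upstream ATG difference 0.445, and medians relative to all genes turned in collagens (-0.24), postsynaptic genes (-0.32), RNA granule genes (0.17), cytosolic ribosomal proteins (-0.058), elongation factors (-0.077) and receptors (-0.16). Receptor and adhesion medians, close to that of all genes, also turned under other alternatives, postsynaptic ones with a mean count of at least 50 (-0.0099) and protein-coding isoforms only (-0.097), and the collagen median without the footprints of culture 1 (-0.088). Among further medians that single libraries moved over 1.5 times, leaving out the RNA of culture 1 gave 0.37 in cytosolic ribosomal proteins, 0.39 in Hox genes and -0.28 in long FMRP-bound transcripts. Leaving out the RNA of culture 2 gave 0.056, 0.11 and -0.073 in these and 0.26 in elongation factors. Without the footprints of culture 1 postsynaptic genes were at 0.040, and without those of culture 2 FMRP-bound transcripts at -0.10. Of the 150 genes selected by the rule for named genes, 134 were called, and 98 of these kept call and direction under every alternative that tested them. Signs turned as follows. With length offsets they did so in Mrps26 (1.18), Mrpl1 (0.42), Psma3 (0.73), Atf4 (-0.17), Ero1l (0.061), Kcna2 (0.14), Lrrtm2 (0.025), Tubd1 (-0.51), Marcks (0.56), Mef2d (-0.14), Tyms (0.23), Eif4g3 (-0.20), Oaz1 (0.0032), Eif4g1 (-0.83) and Rpl41 (0.20). With protein-coding isoforms only they did so in Cisd3 (0.80), Psmb8 (0.65), Pfkp (0.042), Lss (0.39), Srm (-0.27), Calr (-0.72), Sparc (-0.029) and Tpt1 (-4.79). With each assay scaled on its own they did so in Atp5mpl (-0.12), Slc35a4 (-0.13), Atf4 (-0.072), Tubd1 (-0.19) and Eif4g1 (-0.18), and Pabpc1 turned with limma-voom (0.013) and without a filter (0.018). Leaving out 1 library, the range was -0.053 to 0.30 in Atp5mpl, -0.15 to 0.21 in Tubd1, -0.24 to 0.21 in Pabpc1, -0.19 to 0.095 in Eef2, -0.35 to 0.016 in Eef1a1 and -0.47 to 0.80 in Eif4g1, none of them called. Leaving out both libraries of culture 1 turned Psmb8 (0.064), Pabpc1 (0.22), Eef2 (0.0092), Eef1a1 (0.017) and Eif4g1 (-0.074), and of culture 2 Atp5mpl (-0.070), Slc35a4 (-0.011), Atf4 (-0.027) and Tubd1 (-0.056). With 2 libraries a group, simulated counts put the share of called genes at 82 of 99 for 2-fold ratios and 50 of 99 for 1.5-fold ones. That simulation left 12644 of 12842 genes unchanged, whereas 65.4% of tested genes were called in the data. Its shares therefore do not give the share detected in the data, where 3284 of the 8434 called genes lay past 2-fold. Counts are split among isoforms and similar genes by estimation, gene sums do not show where on an mRNA footprints lay, and UTRs are those annotated and not those measured in these cells. Footprint libraries hold 10490535 and 18381021 counts, and genes of few counts rest on few of them.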

Other observations

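Markers of 1 cell type differed widely among themselves in their ratios. The genes named here were chosen after their values were seen. Of the inhibitory neuron markers, Slc32a1, which loads GABA into vesicles, had 215 and 248 CPM in footprints against 46.2 and 60.95 in RNA (log2 ratio 2.12 ± 0.137), while Gad1 (0.91) and Gad2 (0.64), the enzymes that make GABA, were closer to the middle. The fourth tested marker of this list, Lhx6, was low in both assays, at 0.208 and 1.18 CPM against 1.21 and 1.23 (-0.64 ± 0.533, adjusted p 0.311 by edgeR). Dlx1, which was not tested, had 0.572 and 0.599 CPM of the library total in footprints and 2.08 and 2.02 in RNA. Of the oligodendrocyte lineage markers, the transcription factor Sox10 was at 1.18 ± 0.110 and Olig2 at -0.31 ± 0.0975. Mog, a late myelin glycoprotein, had 0.624 and 0.946 CPM in footprints against 8.62 and 7.42 in RNA, a ratio of -3.29 ± 0.341. Hes5, a Notch target of neural progenitors, had 25.6 and 30.03 CPM against 76.5 and 69.0 (-1.38 ± 0.116). All footprint values of Mog and Hes5 lay below all of their RNA values, and the reverse held in Slc32a1. The values of single genes above, other than Dlx1, are scaled by the TMM factors. Sums over a marker list, given as CPM of the library total without that scaling, can thus be lower than those of its members: those of GABAergic neurons were 487 and 521 CPM in footprints and 237 and 284 in RNA, and those of the oligodendrocyte lineage 352 and 384 against 384 and 422.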
